A study of Mus musculus with 10 samples.

Results

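Ubiquinone (coenzyme Q) is made in the mitochondrion by a set of enzymes of which Coq7, a hydroxylase acting late in the pathway, was singled out because its expression in mouse cerebral cortex gave one of the lowest p-values between mice labelled *p97FE65* null and mice labelled wild type. The set followed here has 9 genes: Coq7, and 8 taken along because they belong to the same pathway, namely Coq2, Coq3, Coq4, Coq5, Coq6, Coq9, Pdss1 and Pdss2. Of these 9 genes, 6 were named by a probe set of the array, through 8 of the 22626 probe sets tested. Coq2, Pdss1 and Pdss2 were named by none in the annotation used and were not analysed here. The study looked for genes whose expression depends on FE65 (gene symbol Apbb1), an adaptor protein that binds the tail of the amyloid precursor protein. Cortex RNA of single male mice of 6 months was hybridised to Affymetrix mouse expression arrays, 1 mouse per array, with 5 arrays labelled FE65WT (wild type) and 5 labelled p97FE65NULL. The mice were littermate pairs of null and wild type, but the labels do not say which arrays form a pair, so the fit is unpaired and leaves this part of the design out. The null mice lack the full-length form of FE65, p97FE65. Their allele was made in R1 embryonic stem cells, which come from another strain, and both groups come from a line crossed to C57Bl/6J for 10 generations. The study found sequence of the stem cell strain in the null mice in Gprc5b and Homer2, on either side of Apbb1. It concluded that sequence flanking Apbb1 was retained, and did not map its full extent. Apbb1, Gprc5b and Coq7 all lie on chromosome 7. Whether Coq7 itself carries sequence of that strain was not tested here. The loss of p97FE65 and the retained sequence near Apbb1 cannot be told apart in this design.

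Ubiquinone is a lipid of the inner mitochondrial membrane with a quinone ring and a long isoprenoid tail. It takes electrons from complex I, complex II and several other dehydrogenases, passes them to complex III, and in its reduced form also acts as an antioxidant. Pdss1 and Pdss2 build the tail from products of the mevalonate pathway, Coq2 attaches it to the ring, and the other enzymes, gathered in a complex on the membrane, modify the ring by hydroxylation, decarboxylation and methylation. Brain is among the tissues affected in inherited ubiquinone deficiency.

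Coq7 was higher on the arrays labelled null than on those labelled wild type, by 0.52 on the log2 scale (SE 0.09), which is 1.43-fold. This direction under the deposited labels is the opposite of the one in the study's own tables, which list Coq7 as lower in null cortex by the same 1.43-fold. The genotype behind each label was therefore not settled, and each array goes by its label in what follows. Since Coq7 was chosen for this difference, it is given as a description with no test.

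Coq7 was read by 1 probe set, 1416665_at. In the mice labelled wild type 1 to 5 its GC-RMA expression (log2) was 8.19, 8.27, 8.07, 8.16 and 8.15, with a mean of 8.17 ± 0.07 (SD, n = 5). In the mice labelled null 1 to 5 it was 8.53, 8.59, 8.78, 8.54 and 9.01, with a mean of 8.69 ± 0.20 (SD, n = 5). The 5 arrays labelled null all lay above the 5 labelled wild type, with 0.26 between the lowest of the former and the highest of the latter. The arrays labelled wild type lay close together, while among those labelled null mouse 5 was the highest and mice 1, 2 and 4 lay within 0.1 of one another. Leaving out null 5 gave a difference of 0.44, the lowest of the 10 differences with 1 array left out, and leaving out null 1 gave 0.56, the highest. Over all probe sets, 141 of 22626 (0.623%) had groups that did not overlap, in 66 of them (0.292%) with all arrays labelled null above, and 57 (0.252%) differed by at least 0.5 in either direction. In tissue RNA, fewer cells of a type and less RNA per cell cannot be told apart.

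**Figure D1:**
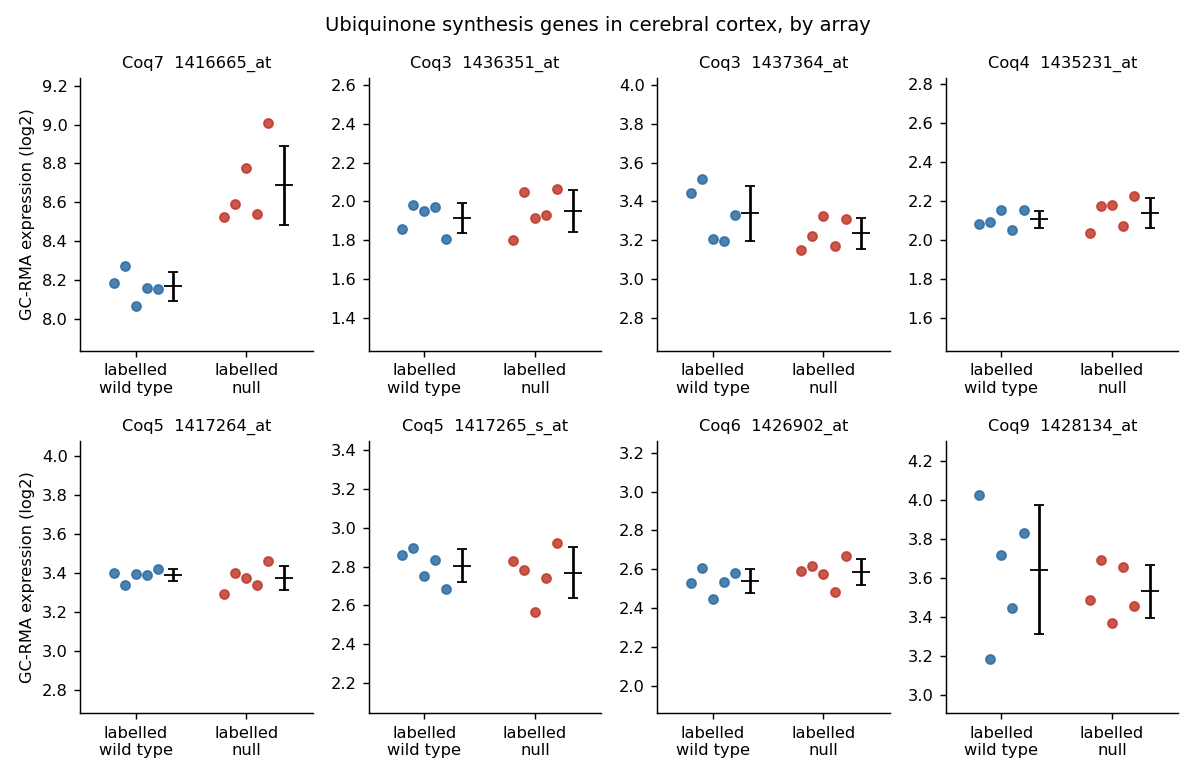
GC-RMA expression (log2, vertical axes, each panel spanning the same range) of the 8 probe sets of ubiquinone synthesis genes in cerebral cortex, with 1 point per mouse. Blue marks the 5 mice labelled wild type, red the 5 labelled null, and black bars give the group mean ± SD. For Coq7 every mouse labelled null lies above every mouse labelled wild type, and in the other 7 panels the groups overlap.

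The sequence upstream of Coq7 is shown because Coq7 is the gene on which the comparison turns. RefSeq (assembly GRCm38.p6) places the 250 bases before its start site at chr7:118533357-118533606 on the minus strand, printed here 5′ to 3′ with the letters CCAAT in capitals.
Coq7 upstream region: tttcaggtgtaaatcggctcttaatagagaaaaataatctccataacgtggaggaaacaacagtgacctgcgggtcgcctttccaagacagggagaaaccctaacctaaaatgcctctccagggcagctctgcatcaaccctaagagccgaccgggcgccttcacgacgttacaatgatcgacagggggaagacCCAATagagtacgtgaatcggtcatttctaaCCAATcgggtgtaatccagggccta
The CCAAT letters begin 56 and 25 bases before the start site. In windows running from 250 bases before to 50 after the start, searched on both strands, CCAAT was present in 37.4% of 32851 promoters. All 9 listed genes had such a window, and besides Coq7 only that of Coq6 held CCAAT. The letters GGGCGG (GC box, 35.7% of all windows) were found in 4 of the 9 windows, those of Coq3, Coq6, Coq9 and Pdss2, and CACGTG (E-box, 7.15%) in that of Coq4. The core promoter letters TATAAA (13.6%) and the cyclic AMP response element TGACGTCA (1.79%) were in none of the 9. These are matches of letters only. The arrays give no measure of the promoters.

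The other measured ubiquinone synthesis enzymes gave differences of at most 0.11 in size. Of their 7 probe sets, 0 had an unadjusted p under 0.05 from limma and 0 passed after adjustment over all probe sets, and the groups overlapped for each of the 7. Over all probe sets, 830 of 22626 (3.67%) had an unadjusted p under 0.05, with 281 (1.24%) higher and 549 (2.43%) lower on the arrays labelled null, and 0 (0%) passed after adjustment. All 7 had a mean under 5 on the log2 scale, the level below which a probe set is called dim here, and among the dim probe sets 326 of 14799 (2.2%) had an unadjusted p under 0.05. Their differences ran from -0.11 to 0.05 with a median of -0.01, beside a median that rounds to 0 over all probe sets. GC-RMA draws dim values together, so the intervals below bound the probe set values and not the transcripts.

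Coq3 and Coq5 encode the methyltransferases of the ring, Coq3 acting on its oxygens and Coq5 on a carbon. Coq3 probe set 1437364_at lay between 3.20 and 3.51 in mice labelled wild type and between 3.15 and 3.33 in mice labelled null, a difference of -0.10 (SE 0.07, 95% confidence interval from -0.26 to 0.05, limma p of 0.172 and adjusted p = 0.999). Wild type 1 and 2 were its highest arrays. The other Coq3 probe set, 1436351_at, differed by 0.04 (SE 0.06, 95% confidence interval from -0.10 to 0.17), with the sign opposite to the first. For Coq5, 1417264_at differed by -0.01 (SE 0.04, interval from -0.11 to 0.08) and 1417265_s_at by -0.04 (SE 0.07, interval from -0.19 to 0.12). All 4 intervals of the methyltransferase probe sets held 0.

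Coq6 is a flavin-dependent hydroxylase that acts on the ring before Coq7. It lay between 2.45 and 2.61 in mice labelled wild type and between 2.49 and 2.67 in mice labelled null, and differed by 0.05 (SE 0.05, interval from -0.06 to 0.15, limma p of 0.358). Coq4, needed for the assembly and function of the complex, differed by 0.03 (SE 0.05, interval from -0.07 to 0.14, limma p of 0.516). Both were close in all 10 mice.

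Coq9 is a lipid-binding protein that associates with Coq7 and is required for its activity. In the mice labelled wild type 1 to 5 it was at 4.03, 3.18, 3.72, 3.45 and 3.83 (log2), and in those labelled null 1 to 5 at 3.49, 3.69, 3.37, 3.65 and 3.45. The highest and the lowest arrays were both labelled wild type, so the values labelled null lay inside the range of the others. The means were 3.64 ± 0.33 and 3.53 ± 0.14 (SD, n = 5 each), with a difference of -0.11 (SE 0.14, interval from -0.43 to 0.21, limma p of 0.462 and adjusted p = 0.999). Coq9 had the widest interval of the 7.

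Around the synthesis enzymes, 4 lists of related genes were counted: accessory proteins of ubiquinone, the isoprenoid supply, the dehydrogenases that hand electrons to ubiquinone, and complex III, which takes them from it. Of 52 genes listed, 44 were measured by 79 probe sets. Of these 79, 0 were higher and 3 (3.80%) lower on the arrays labelled null at an unadjusted p under 0.05, close to the 3.67% of all probe sets, and 0 passed after adjustment. Their median difference was -0.01. Of the 79, 1 had groups that did not overlap, beside 0.623% of all probe sets.

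Of the accessory genes, 8 of 12 were measured by 12 probe sets, and 0 had an unadjusted p under 0.05. Among them were Coq10a, a ubiquinone-binding protein, at -0.08 (SE 0.06), and Pptc7, a mitochondrial phosphatase, at -0.11 (SE 0.09). Yme1l1 and Oma1 are proteases of the inner membrane. Yme1l1 probe set 1450954_at differed by -0.51, with a spread between mice that gave an SE of 0.36 (limma p of 0.183), and Oma1 by 0.10 (SE 0.07). The other measured accessory genes were Coq8a and Coq8b, kinase-like proteins of the complex, Fdx1, a ferredoxin, and Stard7, a lipid transfer protein.

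The mevalonate pathway and its branches supply the isoprenoid tail. Of 12 genes of this list, 10 were measured by 27 probe sets, with 0 higher and 1 lower (3.70%). This was Nus1, a subunit of the enzyme that makes dolichol, which shares the tail's precursors. Its probe set 1419914_s_at lay between 10.49 and 10.74 with the wild type label and between 10.16 and 10.53 with the null label, a difference of -0.20 (SE 0.08, limma p of 0.032, adjusted p = 0.999). The p rose above 0.05 without null 2, null 4, wild type 1 or wild type 5, and after median centring or quantile normalization. Hmgcs1, which makes the precursor of mevalonate, was at -0.24 (1433445_x_at, SE 0.15), Idi1, the isomerase of the first isoprene units, at -0.15 (1451122_at, SE 0.10), and Fdps, which makes farnesyl diphosphate, at 0.17 (1423418_at, SE 0.10), none with an unadjusted p under 0.05. The other probe sets were at -0.08, -0.13 and 0.001 for Hmgcs1, at -0.34 (SE 0.39) for Idi1 and at 0.02 (SE 0.04) for Fdps.

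Of 14 genes for dehydrogenases that feed electrons into ubiquinone, 13 were measured by 18 probe sets, with 0 higher and 1 lower (5.56%). The 1 was probe set 1426689_s_at of Sdha, the flavoprotein of complex II, which lay between 11.44 and 11.66 with the wild type label and between 11.23 and 11.44 with the null label (difference -0.18, SE 0.06, limma p of 0.018, adjusted p = 0.999). The other Sdha probe set, 1426688_at, differed by -0.01 (SE 0.08), so the Sdha probe sets did not give the same answer. Sqor, which oxidises sulfide, was at 0.11 (1420641_a_at, SE 0.05), Prodh, which oxidises proline, at 0.08 (SE 0.05), and Sdhd, a membrane anchor of complex II, at -0.19 (1437489_x_at, SE 0.13). The other probe sets of Sqor and Sdhd were at 0.08 (1430998_at, SE 0.05) and 0.02 (1428235_at, SE 0.08).

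Complex III oxidises the reduced ubiquinone and passes its electrons to cytochrome c. Of 14 genes for its subunits and assembly factors, 13 were measured by 22 probe sets, with 0 higher and 1 lower (4.55%). The 1 was Uqcrb, a subunit close to the ubiquinone-binding site. Its probe set 1416337_at was at 9.18, 9.71, 9.29, 9.43 and 9.24 (log2) in the mice labelled wild type 1 to 5 and at 9.06, 9.10, 9.11, 8.64 and 9.13 in those labelled null 1 to 5. The groups did not overlap, and the difference was -0.36 (SE 0.12, interval from -0.63 to -0.10, limma p of 0.012, adjusted p = 0.999). It kept an unadjusted p under 0.05 with each array left out in turn. The other Uqcrb probe set, 1455997_a_at, differed by 0.30 (SE 0.53), and its wild type 2 array stood at 10.28 while the other 9 lay between 12.34 and 13.28. The subunit Uqcr11 was at -0.20 (SE 0.09, limma p of 0.053), the hinge protein Uqcrh at -0.11 (SE 0.06) and the assembly factor Uqcc1 at 0.10 (1416436_a_at, SE 0.06). The other Uqcc1 probe set, 1448337_at, was at 0.001 (SE 0.07).

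**Figure D2:**
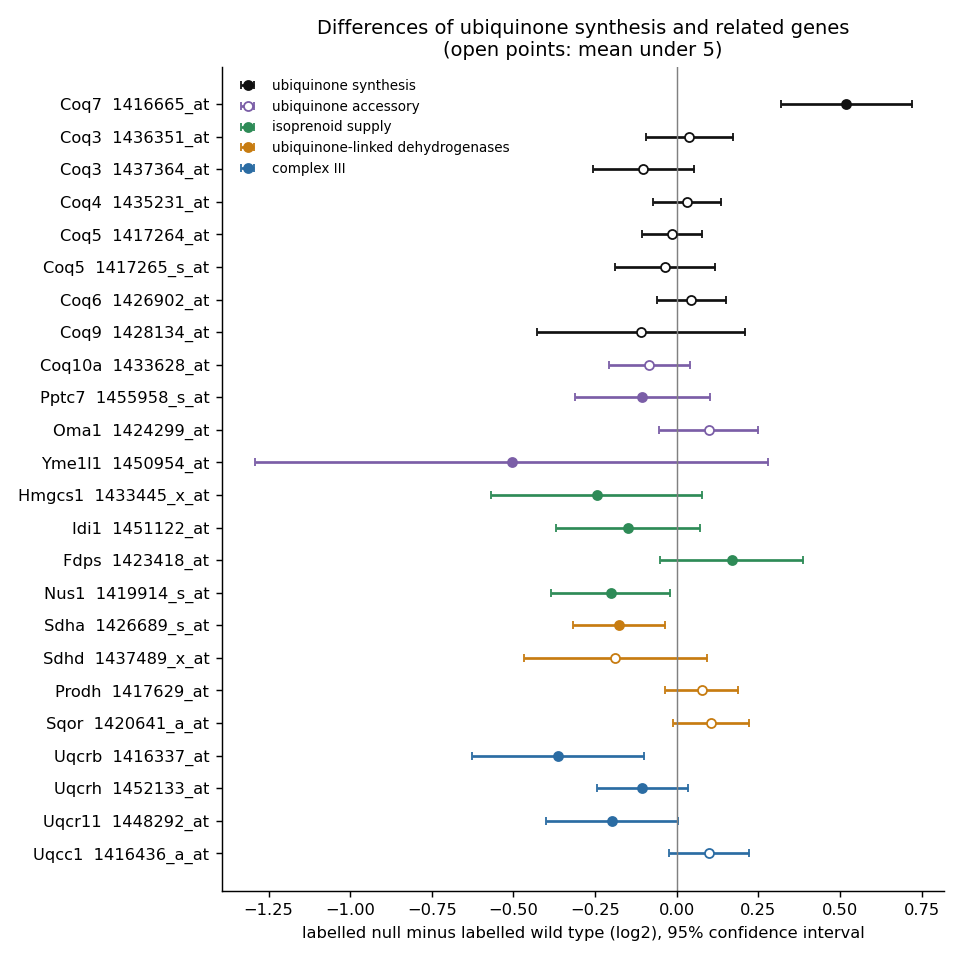
Fitted difference between the arrays labelled null and labelled wild type (log2, horizontal axis) with its 95% confidence interval, for the 8 probe sets of ubiquinone synthesis genes and up to 4 probe sets with the smallest p of each related list (vertical axis, coloured by list, n = 5 arrays per group). The 7 intervals of Coq3, Coq4, Coq5, Coq6 and Coq9 cross 0. Coq7 was chosen for its difference, and its point and interval are drawn as a description only.

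Coq7 lies on chromosome 7, and its neighbours in the gene order of RefSeq (assembly GRCm38.p6) were read in the same way, 10 measured genes on each side with 34 probe sets. Of these 34, 7 (20.6%) had an unadjusted p under 0.05 from limma, 4 of them higher and 3 lower on the arrays labelled null, beside 3.67% of all probe sets. None passed after adjustment (adjusted p = 0.999 for each of the 7). The neighbours were chosen with earlier results on this region known, and neighbouring genes of the same mice are not independent replicates.

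The measured gene next to Coq7 on one side is Syt17, a member of the synaptotagmin family. Its probe set 1422955_at was at 2.90, 3.50, 3.27, 3.57 and 3.19 (log2) in the mice labelled wild type 1 to 5 and at 4.02, 4.12, 3.53, 3.90 and 4.13 in those labelled null 1 to 5. All arrays labelled null but null 3 lay above every array labelled wild type, and the difference was 0.65 (SE 0.14, interval from 0.33 to 0.97, limma p of 0.001). The other Syt17 probe set, 1433909_at, differed the same way by 0.22 (SE 0.07, limma p of 0.008). On the other side, the nearest measured gene was Gde1, a glycerophosphodiester phosphodiesterase, at -0.08 (SE 0.09, interval from -0.27 to 0.11). So the difference of Coq7 had the sign of its neighbour on one side, and on the other side Gde1 gave a value within the spread between mice.

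Farther out, 1110004F10Rik, at place 5 on the side of Syt17, was higher by 0.22 (SE 0.06, limma p of 0.005), and Plekha7, a protein of cell junctions at place 4, by 0.28 (1455343_at, SE 0.10, limma p of 0.018). The other Plekha7 probe set, 1434889_at, differed by 0.06 (SE 0.06, limma p of 0.386). On the same side, Sox6, a transcription factor at place 6, was lower, at -0.40 (1427677_a_at, SE 0.16, limma p of 0.034), and Rras2, a small GTPase at place 10, at -0.16 (1417398_at, SE 0.07, limma p of 0.035). Their other probe sets differed by 0.002 (Sox6 1426018_a_at, SE 0.07, limma p of 0.976) and -0.11 (Rras2 1448689_at, SE 0.09, limma p of 0.255). On the side of Gde1, Gprc5b, an orphan receptor at place 4, was the single gene with an unadjusted p under 0.05. Its probe set 1451411_at was at 7.60, 7.08, 7.74, 7.07 and 7.45 in the mice labelled wild type 1 to 5 and at 6.92, 4.71, 6.60, 6.05 and 6.53 in those labelled null 1 to 5. The groups did not overlap (difference -1.23, SE 0.36, limma p of 0.006). Here too the direction is reversed: the study's tables and its RT-PCR of the same region of Gprc5b both run toward higher in null brain, and its sign here is that of the deposited labels. The size, 2.35-fold, is the one in the study's tables. The other Gprc5b probe set, 1424613_at, differed by -0.14 (SE 0.18, limma p of 0.473) with overlapping groups, and the study detected no difference in that region. Signs were thus mixed along the 20 genes.

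The p of Sox6 rose above 0.05 without null 1, null 3, wild type 3 or wild type 4, and that of Rras2 without null 1, 3 or 4 or wild type 1, 2 or 3. The other 5 probe sets kept an unadjusted p under 0.05 with each array left out in turn. Of the 7, the 4 of Syt17 (1422955_at), Plekha7, Sox6 and Rras2 are dim, and among the 12 neighbouring probe sets with a mean of at least 5 there were 3 with an unadjusted p under 0.05 (2 higher and 1 lower), beside 504 of 7827 (6.44%) over all such probe sets.

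**Figure D3:**
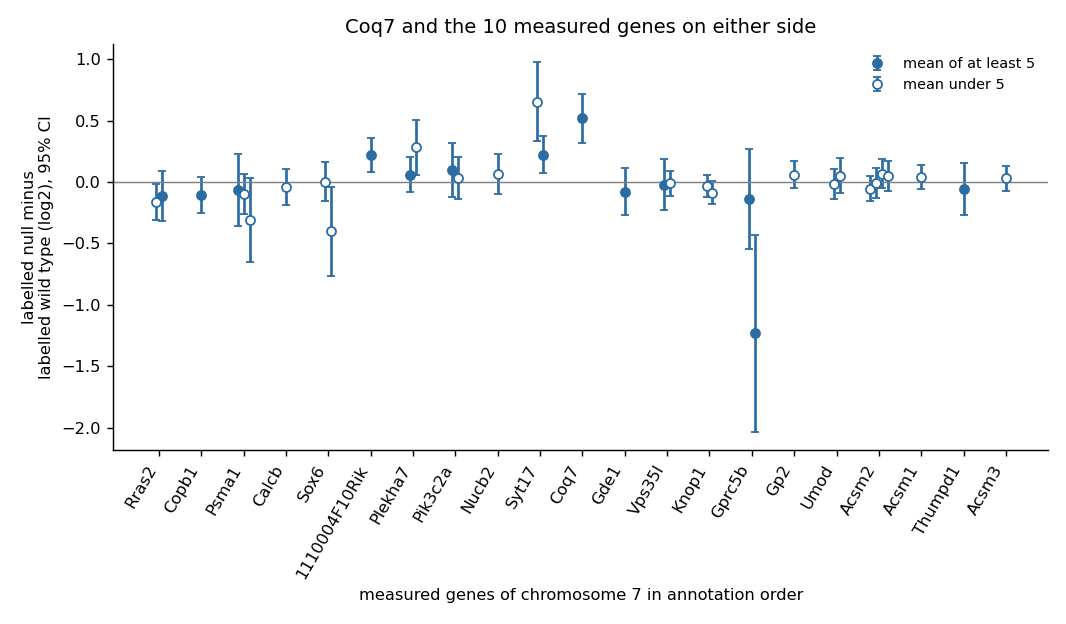
Fitted difference between the arrays labelled null and labelled wild type (log2, vertical axis) with its 95% confidence interval for the probe sets of Coq7 and of the 10 measured genes on each side (horizontal axis, in annotation order along chromosome 7, n = 5 arrays per group). Filled points have a mean of at least 5. Syt17 and Coq7 stand above 0, and Gprc5b 1451411_at stands at -1.23.

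Beyond the difference between the labelled groups, the values of single mice can be followed. The mean of its labelled group was subtracted from each array, and Pearson's r was taken between the remainders of probe sets over the 10 arrays. All such values share the same arrays, so any property that differs from array to array enters every one of them, and they are given as descriptions. Between the 6 measured ubiquinone synthesis genes, each by its brightest probe set, the median r over 15 pairs was 0.33, with 12 of the 15 positive, beside a median of 0.13 over all pairs of probe sets with a mean of at least 5 and 0.12 over those with a mean under 5. The highest was 0.81 between Coq4 and Coq5, and the lowest -0.37 between Coq7 and Coq9. Without null 5 the median over the 15 pairs was 0.18.

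With Coq7, r was 0.66 for Coq6, 0.65 for Coq3 (1437364_at), 0.61 for Coq5 (1417264_at) and 0.59 for Coq4. Null 1 and null 5 lie farthest from the Coq7 group mean, and without these 2 arrays r was 0.62 for Coq6 and 0.79 for Coq3, while it was -0.24 for Coq5 and 0.12 for Coq4. The likeness of Coq5 and Coq4 to Coq7 thus did not hold without those 2 arrays. These were picked for their Coq7 values, and r with Coq7 fell without them in general. Its median over 7153 probe sets with 1 gene and a mean of at least 5 went from 0.32 to 0.06. Coq9, the partner of Coq7, ran the other way with and without the 2 arrays (r of -0.37 and -0.56).

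Among 7153 probe sets with 1 gene and a mean of at least 5, the median r with Coq7 was 0.32 (0.06 without null 1 and null 5), the quartiles were -0.09 and 0.59, 319 had an r of at least 0.8 and 36 an r of -0.8 or lower. The gene most like Coq7 was Armcx4, an armadillo repeat protein of the X chromosome (r = 0.97, Spearman's rho 0.93, and r = 0.94 without null 1 and null 5). Next came Smad4, the shared mediator of TGF-beta signals (r = 0.95, rho 0.79, 0.86 without the 2 arrays), Mapre1, a microtubule end-binding protein (r = 0.94, rho 0.84, 0.83 without them), Virma, a part of the RNA methylation complex (r = 0.94, rho 0.93, 0.89 without them), and Utp3, a ribosome assembly factor (r = 0.94, rho 0.83, 0.79 without them). Their differences between the labelled groups ran from -0.12 to 0.12, and their limma p-values were all above 0.05.

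The most opposite genes were Slc11a2, an iron transporter (r = -0.91, rho -0.89, -0.62 without null 1 and null 5), Fth1, the heavy chain of ferritin (r = -0.90, rho -0.81, -0.66 without them), Sgta, a co-chaperone (r = -0.90, rho -0.87, -0.83 without them), Apbb1, the gene of FE65 (1423892_at, r = -0.88, rho -0.78, -0.73 without them), and Ywhag, a 14-3-3 protein (r = -0.88, rho -0.88, -0.85 without them). The other Apbb1 probe set, 1423893_x_at, had an r of -0.53. Both Apbb1 probe sets lie outside the deleted exon and check nothing about the labels. Ranked from the top and bottom of 7153 values over 10 arrays, these are extremes by construction.

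**Figure D4:**
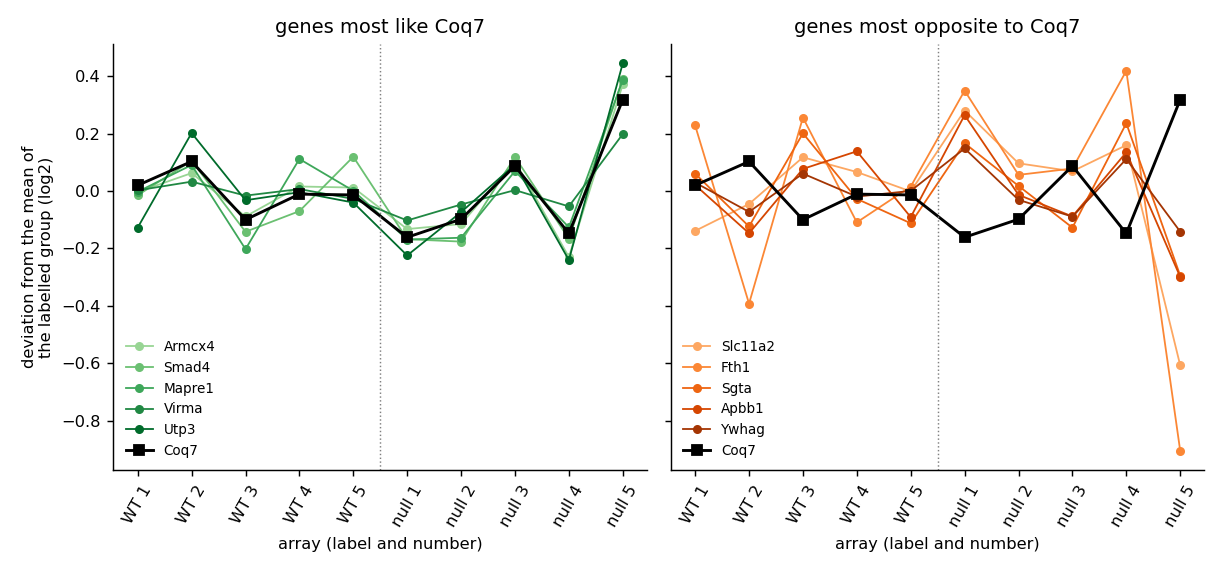
Deviation of each array from the mean of its labelled group (log2, vertical axis) for Coq7 (black squares) and the 5 genes most like it (left, green) or most opposite to it (right, orange) over the 10 arrays (horizontal axis, wild type 1 to 5 and null 1 to 5). Null 5 holds the highest Coq7 deviation, 0.32, with Slc11a2 and Fth1 at their lowest.

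Of the related lists, the dehydrogenases that feed ubiquinone had a median r with Coq7 of 0.65 over their 7 probe sets with a mean of at least 5, and 0.23 without null 1 and null 5. The highest was Etfb, a subunit of the electron transfer flavoprotein, at 0.93 (0.78 without them), and the lowest Sdha 1426688_at at -0.07, while Sdha 1426689_s_at was at 0.65. The accessory genes had a median of 0.57 over 4 probe sets, which was 0.05 without the 2 arrays, and the isoprenoid supply 0.48 over 14, which was -0.08 without them. The median over the 7153 probe sets above fell too, from 0.32 to 0.06, so such a fall is not particular to these lists. All 3 medians depended on null 1 and null 5. For complex III the median was 0.11 over 14 probe sets (0.01 without them), from -0.68 for the assembly factor Uqcc2 (-0.60 without them) to 0.81 for 1435757_a_at of the core subunit Uqcrc2 (0.34 without them), whose other probe set, 1428631_a_at, was at 0.20 (-0.42 without them). Next to Coq7 on the chromosome, Syt17 had an r of 0.04 and 0.21 (-0.31 and -0.42 without the 2 arrays), while Thumpd1, at place 9 on the side of Gde1, had an r of 0.86 (0.81 without them).

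Array medians lay between 3.01 and 3.14 (log2) and correlations between arrays between 0.994 and 0.999 without any identical pair. The cortical markers Snap25, Syt1, Gad1 and Tbr1 were measured. Of 10 neuron marker probe sets, 1 had an unadjusted p under 0.05 (10%, beside 3.67% of all probe sets), and 0 passed after adjustment. This was the dim one of Rbfox3, which was lower at -0.37 (SE 0.12, limma p of 0.014). Neurod6 was at -0.48 (SE 0.22, limma p of 0.050). Signs were mixed among the 10, with 4 positive and 6 negative differences and a median of -0.10. Of 14 oligodendrocyte marker probe sets, 1 was higher (a dim one of Mbp, at 0.20) and 3 were lower (another of Mbp at -0.23, 1 of Cnp at -0.23 and that of Cldn11 at -0.52), which is 28.6% beside 3.67% of all probe sets, and 0 passed after adjustment. Of the 14 differences, 2 were positive and 12 negative, with a median of -0.08. Over all probe sets with a mean of at least 5, 2703 were positive and 5124 negative, with a median of -0.05. The Mbp probe set at -0.23 was the 1 of the 14 whose groups did not overlap. The groups overlapped in the mean over the list. This mean log2 value lay between 9.43 and 9.81 with the wild type label and between 9.31 and 9.61 with the null label, with none of these markers at 0. Their part in the differences of Coq7 and its neighbours was not tested. Of the 17 astrocyte, 9 microglia, 7 endothelial, and 7 striatum and choroid plexus probe sets, 0 had an unadjusted p under 0.05. Gapdh 3′ minus 5′ signal, a measure of RNA integrity, was -0.04 to 0.27 with the wild type label and -0.07 to 0.12 with the null label.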

How the data were processed

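Cortex RNA of 10 mice was measured on 1 array each. The authors made the deposited log2 values with GC-RMA, in which nonspecific binding is estimated from the GC content of the probes, the arrays are normalized to one another and the probes of each set are combined. The GC-RMA version was not given in the sources used here. GC-RMA draws dim probe sets together, so their differences may be understated. Groups were taken from the labels. Controls (64 probe sets) were set aside, which left 22626 to test. Of these, 20380 had a single gene in the platform annotation, 691 had more than 1 and 1555 had none. RefSeq (assembly GRCm38.p6), to which 20351 were matched by gene ID, was used for names, gene order and promoter sequence.

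A linear model of the label was fitted to each probe set by lmFit and eBayes of limma 3.58.1 (R 4.3.3), with no pairing, and differences are labelled null minus labelled wild type. P-values were adjusted by the Benjamini-Hochberg method across the 22626 probe sets, at 0.05. The fit was tested on simulated data with noise drawn independently for each probe set. Changes shared across an array were not part of that test. Confidence intervals are at 95%. The number of arrays limits the precision. The genes, the lists and the tests were chosen with earlier results of these data known. Named were all probe sets of the listed enzymes, up to 4 probe sets with the smallest p of each related list with 1 per gene, neighbours with an unadjusted p under 0.05 and the nearest on each side, and the 5 genes most like and 5 most opposite to Coq7. Thumpd1, Etfb, Uqcc2, Uqcrc2 and the markers Rbfox3, Neurod6, Mbp, Cnp and Cldn11 were named after their values were seen. So were the further probe sets of Sdha, Uqcrb, Plekha7, Sox6, Rras2, Gprc5b, Hmgcs1, Idi1, Fdps, Sqor, Sdhd and Uqcc1. The alternatives tried were a block for pairs of equal replicate number, array medians set equal, quantile normalization, a mean of at least 5, a floor at 4, the trend and robust options of eBayes, array weights, the methods' t-test and omission of single arrays.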

Additional observations from a re-analysis of the deposited data

Results flagged for a closer look

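For the named probe sets, the highest or lowest of the 5 arrays of each labelled group was compared with its nearest neighbour by Dixon's ratio. Of 84 groups, 6 held an array past the 95% critical value, where chance flags about 1 in 20 groups, and none of the 6 was in a ubiquinone synthesis gene. The dim probe set 1437489_x_at of Sdhd stood at 2.94 (log2) on wild type 5, with the next array at 2.39. Uqcrb 1416337_at stood at 8.64 on null 4, below the next array at 9.06, and without that array its difference was -0.27, the smallest in size of those with 1 array left out. Uqcr11 was at 10.45 on wild type 2, with the next at 10.08, and Uqcrh at 9.38 on wild type 3, with the next at 9.49. On null 5, the array with the highest Coq7 value, the iron transporter Slc11a2 was at 5.36 (next 6.03) and the ferritin chain Fth1 at 12.5 (next 13.5). Both genes were named for running opposite to Coq7, whose largest deviation was on null 5. Their low values there are part of why they were named, so these 2 flags cannot be set against that chance rate.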

How the results depend on the processing

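The Coq7 difference was 0.58 after quantile normalization and between 0.44 and 0.56 with each array left out. Its sign was fixed by the choice of Coq7, whose groups do not overlap, and is no sign of stability. No probe set of the other synthesis enzymes reached an unadjusted p under 0.05 in any of the 17 alternatives, and the count past an adjusted p of 0.05 over all probe sets was 0 in all 18, the methods' t-test included (767 at an unadjusted p under 0.05). Of the fitted differences of the enzymes, Coq5 1417264_at turned to 0.0056 without null 1 (range -0.036 to 0.0056) and 1417265_s_at to 0.014 without null 3 (range -0.075 to 0.014). Counts of probe sets at an unadjusted p under 0.05 changed in several settings. Under the replicate block the accessory genes gave 1 in place of 0 and the isoprenoid genes 2 in place of 1, and it changed no other count of a list. It took the p of Sox6 above 0.05, as did the methods' t-test, with 7 neighbours called under each. The numbers were not taken as pairs, since the correlation of same-numbered arrays was from 0.07 to 0.54, and only number 1 correlated best with its own. Median centring gave 0 for the isoprenoid genes, 2 for complex III and a median r of 0.54 between the enzymes. Array weights gave 4 for the dehydrogenases (3 higher and 1 lower), 3 for complex III (1 higher and 2 lower) and 1449 over all probe sets. The floor gave 3 for the neighbours and 445 over all, with fewer probe sets tested. A mean of at least 5 gave 3 and 354 of 7827, beside 504 of the same 7827 in the main fit. In the filtered fit eBayes took its prior from those 7827 alone. Quantile normalization gave an r of 0.94 for Armcx4 and turned the lead of lower probe sets into 524 higher and 420 lower. For the isoprenoid genes it gave 1 higher and 0 lower, where the main fit gave 0 higher and 1 lower. With 1 array left out, the counts were 0 to 1 for the accessory genes (1 without null 5), 0 to 3 for the isoprenoid genes (3 without null 5, 2 without null 3 or wild type 1, 0 without null 4 or wild type 5), 1 to 3 for the dehydrogenases (3 without null 5, 2 without null 1), 1 to 3 for complex III (3 without null 5, 2 without null 3), 5 to 10 for the neighbours (10 without null 5), and 595 to 1655 over all probe sets (1655 without null 5). Directions changed too. The isoprenoid genes gave 1 higher and 0 lower without null 2, and 1 higher and 1 lower without null 3. The dehydrogenases gave 2 higher and 1 lower without null 5, and 1 higher and 1 lower without null 1. The r of Armcx4 ran from 0.92 to 0.98 and the median r between the enzymes from 0.18 to 0.47. The cause of these changes was not tested. Under the filter on the mean the enzymes other than Coq7 gave no value, and under the floor only Coq9 did, so their values and those between enzymes were not recomputed there. The 7 dim probe sets limit what can be said of the enzymes other than Coq7.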
